A study of Mus musculus with 4 samples.

Results

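Interferon-stimulated genes are the genes that cells switch on after interferons bind their receptors, and many of their products block the growth of viruses. The 38 mouse genes described here are a fixed list of such genes: 5 transcription factors of the interferon response, 4 sensors of foreign nucleic acid, 21 antiviral effectors, 5 regulators and partners, and 3 genes of antigen processing. All 38 were found by symbol in the GENCODE annotation of mm10. Their chromatin was measured by ATAC-seq, in which the Tn5 transposase cuts accessible DNA and a peak marks a site with more fragments than its surroundings. Peaks of 4 libraries were merged wherever they shared 1 bp, which gave 82641 regions, and the regions that overlapped a member gene body or its 10 kb flanks were kept. These were 91 regions. Of them, 34 lay within 2 kb of a start site of a member, 22 lay within 2 kb of a start site of another gene in the same window, and 35 were distal to any start site.

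The libraries came from keratinocytes, the main cells of the epidermis, sorted from the skin of adult female C57BL/6 mice. Each genotype had 2 libraries: Wild Type (WT), and Mapk8-KO, which combines Mapk8 fl/fl alleles with the keratin 14 promoter-driven Cre K14-Cre. That promoter is active in epidermal keratinocytes, so Mapk8, the gene of the kinase JNK1, is deleted there and is retained in skin cells that do not use it. All mice, WT included, had received a cream with 5% imiquimod (Aldara) for 8 days. Imiquimod is a ligand of the receptor TLR7. No library from untreated skin was analysed here, so the comparison is between genotypes under imiquimod and not between treated and untreated cells.

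Type I and type II interferons act through receptors that activate the kinases JAK1, JAK2 and TYK2. These phosphorylate STAT proteins. STAT2 and IRF9 are part of a complex that binds the interferon-stimulated response element (ISRE) in promoters. Another element of interferon-responsive promoters is the gamma-activated site (GAS). In skin, this programme is known as part of the psoriasis-like reaction to imiquimod.

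The letters searched for an ISRE were GAAA, any 2 bases and GAAA again, or TTTC, any 2 bases and TTTC on the other strand, and those for a GAS were TTCNNNGAA. The AP-1 motif, bound by JUN and FOS proteins, was searched as TGACTCA and TGAGTCA. An overlap of motifs was allowed. RefSeq promoter sequences of assembly GRCm38.p6, each from 250 bases before to 50 bases after a start site, were matched by symbol to 30 of the 38 members. Dhx58, Zbp1, Oas2, Mx1, Mx2, Rtp4, Parp14 and Usp18 were not matched. ISRE letters stood in 13 of the 30 promoters (43.3%), against 1079 of 27025 genes in the whole table (3.99%). GAS letters stood in 26.7% of the member promoters against 9.55% of all genes, and AP-1 letters in 16.7% against 5.95%. These are counts of letters and not of bound sites.

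The following are the 170 bases before the start site of members whose ISRE letters lay inside a called region and before the start site, with the matches to the ISRE and AP-1 letters in capitals. They show how the elements were spaced in an accessible promoter. In Rsad2 and Oas3, but not in Bst2 or Ifit1, AP-1 letters accompanied the ISRE in this stretch. Gbp2 met the same criterion, with ISRE letters at −59 and AP-1 letters at −102. It is not shown because 61 of its bases are annotated as UTR, against 25 for Ifit1 and 2 for Oas3, which are shown. Stat2 met the criterion too, in a region called in 4 libraries. Its ISRE letters start at −222, before the 170 bases, and it is not shown.
Rsad2, chr12:26456453-26456622, minus strand: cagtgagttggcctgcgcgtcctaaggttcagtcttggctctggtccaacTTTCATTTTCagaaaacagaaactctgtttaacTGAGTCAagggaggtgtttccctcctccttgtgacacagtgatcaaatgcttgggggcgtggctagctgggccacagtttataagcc
Bst2, chr8:71537473-71537642, minus strand: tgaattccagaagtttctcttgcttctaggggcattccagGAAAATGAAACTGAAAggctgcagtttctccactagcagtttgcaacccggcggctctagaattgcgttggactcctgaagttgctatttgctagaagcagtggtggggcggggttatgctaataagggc
Oas3, chr5:120777660-120777829, minus strand: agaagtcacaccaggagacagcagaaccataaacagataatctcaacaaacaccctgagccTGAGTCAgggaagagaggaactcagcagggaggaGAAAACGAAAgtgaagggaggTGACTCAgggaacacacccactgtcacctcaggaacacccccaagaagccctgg
Ifit1, chr19:34640719-34640888, plus strand: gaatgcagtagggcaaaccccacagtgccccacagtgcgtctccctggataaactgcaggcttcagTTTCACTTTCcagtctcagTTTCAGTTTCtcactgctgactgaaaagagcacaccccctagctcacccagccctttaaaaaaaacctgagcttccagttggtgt

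A further pair, Isg15 and Ifit3, was chosen after the calls were seen, to show promoters with repeated ISRE letters at which no region was called in any library.
Isg15, chr4:156200819-156200988, minus strand: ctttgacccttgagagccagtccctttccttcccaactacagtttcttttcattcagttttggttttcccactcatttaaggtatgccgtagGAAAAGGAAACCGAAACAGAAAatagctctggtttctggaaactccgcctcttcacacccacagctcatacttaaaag
Ifit3, chr19:34583359-34583528, plus strand: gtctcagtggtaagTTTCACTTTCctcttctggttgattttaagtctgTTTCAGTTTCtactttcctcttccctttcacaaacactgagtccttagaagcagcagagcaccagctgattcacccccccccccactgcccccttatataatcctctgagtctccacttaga

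The 4 lists held between 49856 and 69927 peaks. Each list gives, for a peak, the fold of the fragments at its summit over the local background, and the number of fragments at the summit was recovered from that fold and its p-value. The libraries differed in depth: with WT 1 set to 1, the median ratio over regions was 0.694 for WT 2, and 1.12 and 0.646 for the Mapk8-KO libraries. Fragment numbers below are scaled to the depth of WT 1 unless called unscaled. At the Mapk8 promoter, which is not a check of the deletion, scaled fragments were 96.0 and 105.1 in the WT libraries and 97.6 and 139.3 in the Mapk8-KO libraries. Of 6 keratinocyte genes, Itga6, Epcam and Trp63 had a promoter region in all 4 libraries and Krt5, Krt14 and Col17a1 in 2 or 3. At the Krt14 promoter, WT 1 held 36.0 scaled fragments and WT 2 had no call, while the Mapk8-KO libraries held 178.2 and 168.7. Mapk8-KO mice also carry the keratin 14 promoter of the Cre transgene, and whether fragments of the transgene add to this value was not tested. None of 5 Langerhans and myeloid genes (Ptprc, Cd207, Itgax, Cd74 and Lyz2) had a called promoter, and 1 of 5 T cell genes, Trac, did. The summed fragments of all regions around the Langerhans and myeloid genes were 125.0 and 142.6 in the WT libraries and 80.6 and 34.0 in the Mapk8-KO libraries. Those around T cell genes were 244.8 to 314.3, those around 4 fibroblast and endothelial genes, 3 of them with a promoter called in all libraries, 447.3 to 537.1, and those around 4 melanocyte genes, again 3 of them called, 339.0 to 365.2. The part of other cell types in the results below was not tested, and in bulk chromatin fewer open cells and less open chromatin per cell cannot be told apart.

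In imiquimod-treated keratinocytes, the share of members with a promoter region called in every library was near that of all protein-coding genes. A promoter region was called in all 4 libraries for 23 of the 38 members (60.5%), against 12070 of 21938 protein-coding genes (55.0%). For 6 members it was called in 1 to 3 libraries. For 9 members (23.7%, against 35.3% of coding genes) it was called in none. All 5 transcription factor genes and all 3 antigen processing genes were called in all 4 libraries, as were 2 of 4 sensors, 9 of 21 antiviral effectors and 4 of 5 regulators and partners. The members thus ranged from promoters open in every library to windows of more than 20 kb without a single peak.

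The strongest promoter of the list was that of Ifih1, the gene of MDA5, a cytosolic sensor of double-stranded RNA (chr2:62645580-62646461). Its summit, in the 5′ UTR 40 bp after the start site, held 111.0 and 85.0 scaled fragments in the WT libraries and 96.7 and 126.9 in the Mapk8-KO libraries. The groups overlapped. Ddx58, which encodes the RNA sensor RIG-I, had 23.0 and 23.0 fragments in WT and 26.9 and 38.7 in Mapk8-KO. The Ddx58 values did not overlap, but the fitted log2 difference of 0.49 had an SE of 0.29. Dhx58, the gene of LGP2, a regulator of both sensors, and Zbp1, a sensor of Z-form nucleic acid, had no promoter region, and no region at all was called within 10 kb of Zbp1.

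Among the transcription factors, Stat2 and Irf9 stood well above Irf3 and Irf7. Stat2, at chr10:128270240-128270807, held 82.0 and 72.0 scaled fragments in WT and 70.7 and 92.9 in Mapk8-KO, and lay between the 95.7th and 97.7th percentile of fold in every library. The percentile is the rank among the 40159 regions called in all 4 libraries. Irf9 (chr14:55603763-55604438) held 87.0 and 80.6 fragments in WT and 72.5 and 57.3 in Mapk8-KO. Both Mapk8-KO values of Irf9 were below both WT values, and the difference did not pass the test (log2 −0.38, SE 0.20, limma adjusted p = 0.51). Irf1, a factor induced by both types of interferon, had its stronger promoter region 1111 bp before the start site, with 62.0 and 53.3 fragments in WT and 46.6 and 58.8 in Mapk8-KO, and a weaker region 64 bp before it, with 30.0, 34.6, 32.2 and 29.4 in the same order. Irf3, which is activated by phosphorylation downstream of the sensors, held 21.0 and 28.8 fragments in WT and 28.7 and 35.6 in Mapk8-KO. Irf7, the amplifier of type I interferon production, held 29.0 and 17.3 in WT and 25.1 and 29.4 in Mapk8-KO, so that the WT libraries lay on both sides of Mapk8-KO 1.

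The antiviral effectors ranged from promoters called in every library to promoters called in none. Eif2ak2, the gene of PKR, a kinase that stops translation on double-stranded RNA, was the highest, with 62.0 and 73.4 scaled fragments in WT and 65.4 and 99.0 in Mapk8-KO. Bst2, the gene of tetherin, which holds budding virions at the cell surface, followed with 43.0 and 36.0 in WT and 35.8 and 46.4 in Mapk8-KO. Adar, an RNA-editing enzyme with several start sites, had 2 promoter regions called in all libraries, the stronger with 33.0, 36.0, 32.2 and 57.3 fragments in WT 1, WT 2, Mapk8-KO 1 and Mapk8-KO 2. Of the guanylate-binding proteins, Gbp3 held 37.0 and 36.0 fragments in WT and 32.2 and 29.4 in Mapk8-KO, and Gbp2 held 24.0 and 36.0 in WT and 25.1 and 24.8 in Mapk8-KO. Mx2, a GTPase like Mx1, had 2 promoter regions called in all libraries, the stronger with 39.0 and 33.1 in WT and 39.4 and 37.1 in Mapk8-KO. Counting the strongest promoter region per gene, Ifit2, an RNA-binding inhibitor of translation, was the weakest effector called in all libraries. It held 22.0 and 24.5 in WT and 24.2 and 29.4 in Mapk8-KO. The weaker Adar region was lower, with 19.0 and 14.4 in WT and 14.3 and 21.7 in Mapk8-KO. None of these effector promoters passed the limma test between the genotypes.

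Some promoters were called in 1 to 3 libraries. Ifit1 was called in Mapk8-KO 1 alone, with 21.0 unscaled fragments. Oas3, a synthase of the 2-5A messenger of RNase L, was called in the deepest library of each genotype, WT 1 and Mapk8-KO 1, with 22.0 unscaled fragments in each. The strongest promoter regions of Parp14 and Xaf1 were called in 3 libraries and missed in Mapk8-KO 2, the shallowest library. In WT 1, WT 2 and Mapk8-KO 1, this Parp14 region held 46.0, 28.8 and 38.5 scaled fragments and that of Xaf1 33.0, 30.2 and 24.2, which is within the range of promoters called in all 4. A second Parp14 promoter region, with its summit 2319 bp after the start site, was called in WT 1, Mapk8-KO 1 and Mapk8-KO 2. It held 18.0, 26.0 and 38.7 scaled fragments there, so a Parp14 promoter region was called in every library. Ifi35, a partner of Nmi, was called in 3 and missed in WT 2. No promoter region was called for Dhx58, Zbp1, Isg15, Ifit3, Oas1a, Oas2, Oasl1, Ifi44 or Rtp4, and Zbp1, Oas2, Ifi44 and Rtp4 had no region in the whole window. The lists hold only peaks past the caller's threshold, and the lowest summit listed in a library held 8.0 to 10.0 unscaled fragments, so weaker accessibility was not detectable. Oas1a, Ifit3 and the Gbp genes also lie in clusters of close copies, where calls and missing calls are uncertain.

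Among the regulators and partners, Usp18, a protease that removes ISG15 and dampens receptor signalling, had the strongest promoter, with 61.0 and 47.5 scaled fragments in WT and 65.4 and 71.2 in Mapk8-KO. Both Mapk8-KO values were above both WT values, with a log2 difference of 0.34 (SE 0.21, limma adjusted p = 0.61). Nmi held 28.0 and 21.6 in WT and 35.8 and 34.0 in Mapk8-KO. Sp100, a component of nuclear bodies, had the lowest promoter region of those called in all 4, with 16 and 13 in WT and 17.0 and 21.7 in Mapk8-KO. In the class II region of the major histocompatibility complex, Psmb9 and Tap1 share 1 divergent promoter region (chr17:34187264-34187945), so that their values are the same measurement: 48.0 and 63.4 in WT and 51.9 and 77.4 in Mapk8-KO. Psmb8, an immunoproteasome subunit like Psmb9, held 38 and 38.9 in WT and 60.9 and 46.4 in Mapk8-KO.

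Ordered by the mean of the 4 libraries, the 22 distinct strongest promoter regions that were called in all libraries ran from 104.9 scaled fragments at Ifih1 to 16.9 at Sp100, a 6.20-fold range. The count at a summit is taken at 1 position and does not depend on the length of the region. After Ifih1 came Stat2 (79.4), Eif2ak2 (75.0), Irf9 (74.4), Usp18 (61.3), the Psmb9 and Tap1 promoter (60.2) and Irf1 (55.2). Of 21 pairs of neighbours in this order, 20 overlapped in their range over libraries, so most steps of the order were within the spread.

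**Figure D1:**
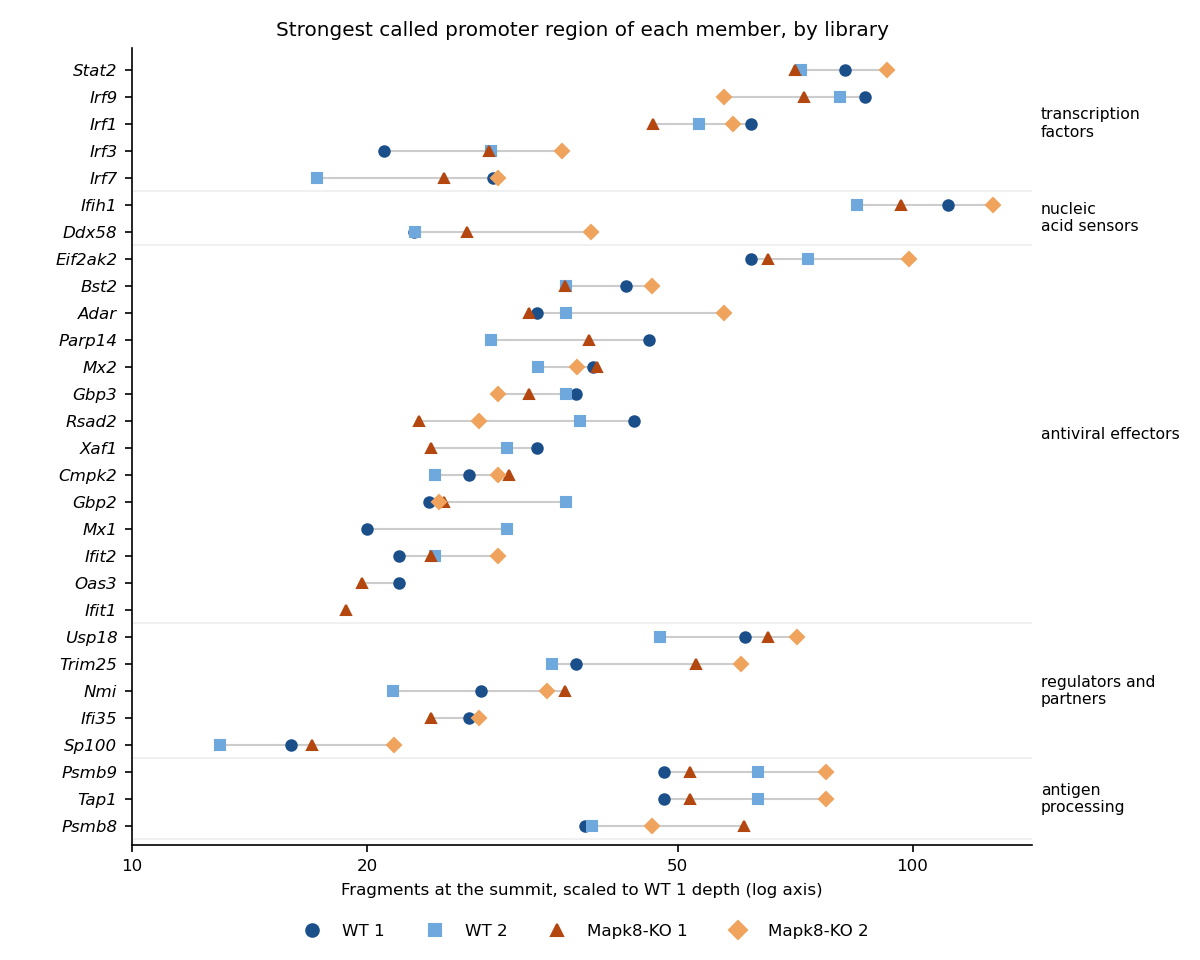
Scaled fragments at the summit (log axis, scaled to the depth of WT 1) for the strongest called promoter region of each of 29 members, grouped by role, with 1 point per library; grey lines join the lowest and highest library, and a library without a call has no point. Ifih1, Stat2, Eif2ak2 and Irf9 sit at the right, Psmb9 and Tap1 share 1 region, and both Mapk8-KO points lie right of both WT points for Trim25 and left of them for Rsad2.

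ISRE letters were more frequent in member promoter regions than in promoter regions at large. The search window here was 201 bp around the strongest summit. It held ISRE letters in 10 of 34 member promoter regions (29.4%), against 1.32% of the 22032 promoter regions of the atlas, and in 0 of 35 distal member regions, against 1.71% of distal regions. GAS letters stood in 14.7% of member promoter regions against 4.31%. AP-1 letters stood in 20.6% of member promoter regions, against 12.0% of all promoter regions, and in 14.3% of distal member regions, against 28.0% of all distal regions.

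Within the 13 RefSeq promoters with ISRE letters there were 20 matches. Of these, 8 matches, at 7 genes, lay inside a region called in all 4 libraries (Ifih1, Ddx58, Gbp2, Bst2, Stat2, Rsad2 and Eif2ak2), 3 lay inside a region called in 1 or 2 libraries (Oas3 and Ifit1), and 9, at 4 genes, lay outside any region (Gbp3, Isg15, Oas1a and Ifit3). For the matches inside a region, the summit was a median of 61.5 bp away (range 7.5 to 173.5 bp). At Gbp3 the called region began 256 bp and had its summit 595 bp after the RefSeq start site, while the nearest GENCODE start site was 228 bp from that summit. ISRE letters therefore did not separate members with a called promoter from those without: they stood in 8 of 21 RefSeq promoters of members called in all libraries, 2 of 4 of those called in 1 to 3, and 3 of 5 of those called in none.

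**Figure D2:**
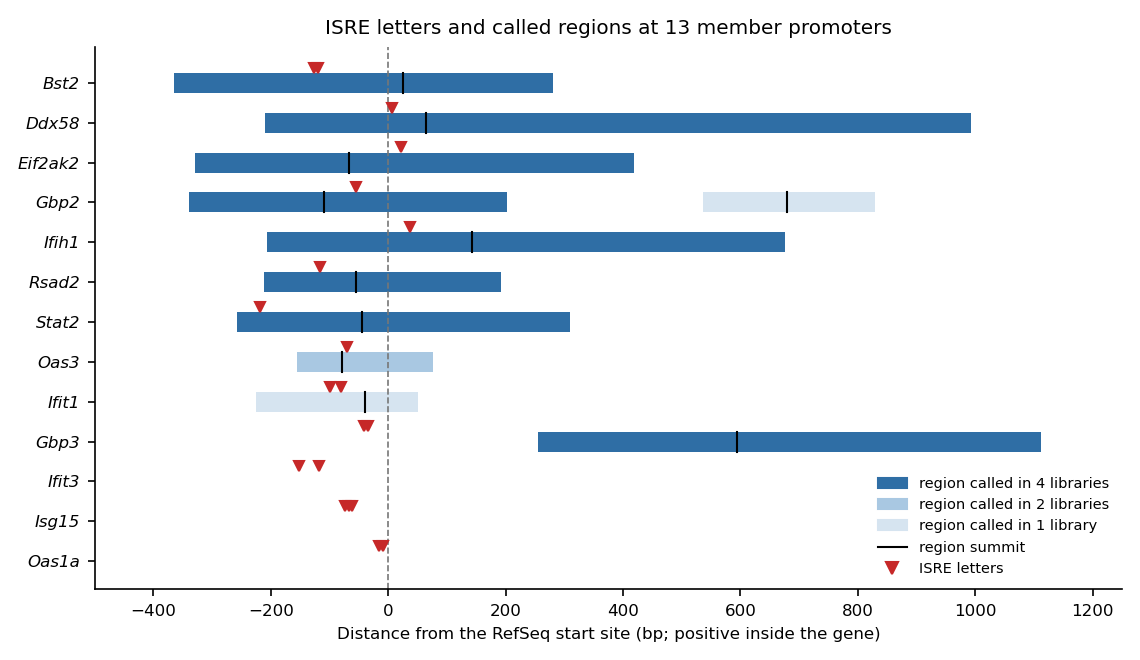
Position in bp from the RefSeq start site (dashed line) of ISRE letters (red triangles) and of called regions (bars, darker where called in more libraries, with the summit as a black line) at 13 member promoters. At 7 genes the letters lie in a region called in all 4 libraries, at Oas3 and Ifit1 in one called in 2 and 1, and at Gbp3, Ifit3, Isg15 and Oas1a outside any region.

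Base composition is given as a description, with no test. The ratio of observed to expected CpG over the whole RefSeq promoter sequence had a median of 0.549 for the 21 members called in all 4 libraries, 0.188 for the 4 called in 1 to 3 and 0.377 for the 5 called in none, against 0.415 over all genes. The ranges overlapped, at 0.119 to 1.02 for the first group and 0.0564 to 0.397 for the last. Irf1 (1.02), Adar (0.942) and Stat2 (0.834) had the highest ratios, and Rsad2 (0.291), Gbp2 (0.147) and Gbp3 (0.153) were called in every library with low ones.

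The genotypes were compared to ask whether epidermal deletion of Mapk8 went with a change at these genes. No member region among the 45 called in all 4 libraries passed the limma test at an adjusted p of 0.05, where the same fit called 83 of 40159 regions (0.207%), 5 higher (0.0125%) and 78 lower (0.194%) in Mapk8-KO. That count ran from 1 to 1960 when 1 library was left out and was 0 without the variance trend. At an unadjusted p under 0.05 there were 5 member regions, against 10.4% of all regions. The median log2 difference of the 45 regions was 0.20 (range −0.67 to 0.95), and that of all regions was 0.0057. The 45 regions were 25 promoters of members, 9 promoters of other genes and 11 distal regions. Of all 40159 regions, 25629 were distal, so these medians compare unlike mixes. With 2 libraries per genotype and nothing in the labels on whether each came from a separate animal, these p-values measure the spread between libraries. A p that misses the threshold does not show that the genotypes are alike.

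The member regions were called in similar numbers in both genotypes. WT 1 had 75, WT 2 had 60, Mapk8-KO 1 had 76 and Mapk8-KO 2 had 56, and the lists of WT 1 and Mapk8-KO 1 were also the longest. Of the 91 regions, 45 (49.5%) were called in all libraries, against 48.6% of the atlas. Scaled fragments did not overlap between genotypes in 13 of the 45 regions with Mapk8-KO higher (20.4% of all regions) and in 9 with WT higher (20.3%). Promoters of the whole atlas leaned the same way: of 14530 called in all libraries, 4085 had Mapk8-KO higher and 1556 WT higher. Distal regions leaned the other way, with 4115 and 6580 of 25629. In the windows, promoters of members had 7 and 3 of 25, promoters of other genes 4 and 1 of 9, and distal regions 2 and 5 of 11. The mean percentile of member promoters was 43.4 ± 3.46 in WT and 44.2 ± 2.80 in Mapk8-KO (SD, n = 2 libraries), a difference of 0.856 points that was smaller than the spread between libraries. Over all promoter regions of the atlas the means were 51.6 and 54.1. Distal member regions had means of 32.8 ± 1.41 and 33.8 ± 1.85 (SD, n = 2), a difference of 1.05 points. Promoters of other genes in the windows had 38.8 ± 1.98 and 46.6 ± 1.08, a difference of 7.74 points over 9 regions, with no test.

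**Figure D3:**
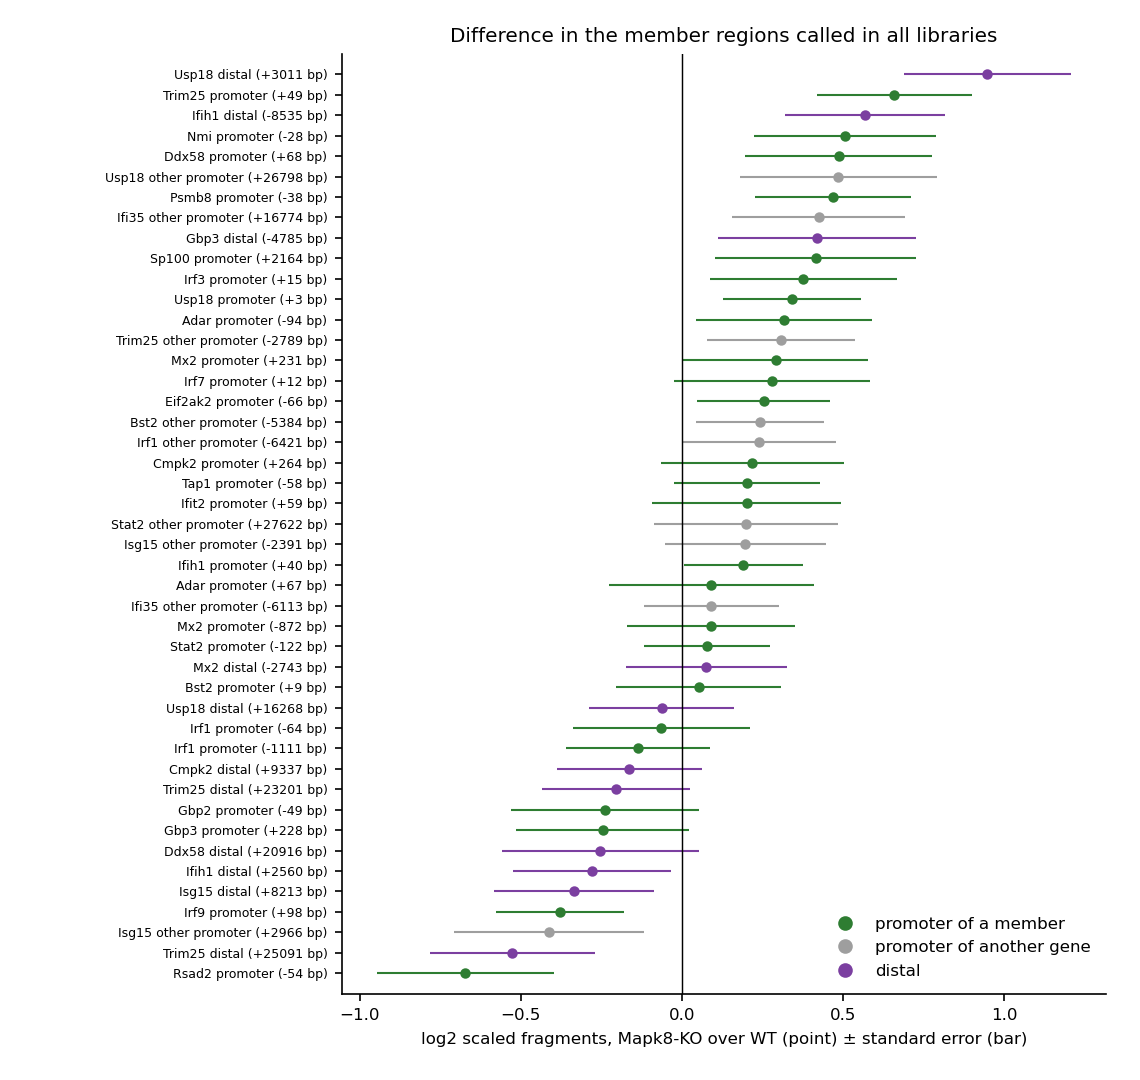
Difference in log2 scaled fragments, Mapk8-KO over WT, for each of the 45 member regions called in all libraries, as points with standard error bars from limma, labelled with the gene and the distance of the summit from its start site in bp. The values run from −0.67 at the Rsad2 promoter to 0.95 at the Usp18 intron, and no region passed an adjusted p of 0.05.

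The region with the largest difference lay in an intron of Usp18, 3011 bp after the start site (chr6:121248619-121249101). It held 31 and 20 unscaled fragments in WT and 51.0 and 47.0 in Mapk8-KO, which is 31.0 and 28.8 against 45.7 and 72.7 when scaled. Both Mapk8-KO libraries were above both WT libraries, and Mapk8-KO 2 was farthest above. The log2 difference was 0.95 (SE 0.26, limma adjusted p = 0.112), and it ran from 0.61 to 1.28 with a library left out. Over the alternatives tried, the adjusted p ran from 0.00176 to 0.90, and it passed the threshold without Mapk8-KO 1 (0.00176) and with another depth scaling (0.034). Fold percentiles were 11.8 and 10.9 in WT and 23.7 and 52.2 in Mapk8-KO. None of the 3 motifs was found within 100 bp of the summit. A second Usp18 region, 16268 bp from the start site, held 63.0 and 47.5 scaled fragments in WT and 53.7 and 51.1 in Mapk8-KO, with no separation of the genotypes.

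The promoter of Trim25, a ubiquitin ligase that helps activate RIG-I, was the other member region ranked higher in Mapk8-KO. Ranked higher means that the lowest percentile of one genotype was at least 10 points above the highest of the other, as for 4.07% of all regions in this direction and 4.65% in the other. At chr11:88999173-88999620, in the 5′ UTR 49 bp after the start site, scaled fragments were 37.0 and 34.6 in WT and 52.8 and 60.4 in Mapk8-KO. The log2 difference was 0.66 (SE 0.24, limma adjusted p = 0.275). Trim25 also had a region 25091 bp from the start site with the opposite sign, at 42.0 and 54.7 in WT and 35.8 and 31.0 in Mapk8-KO (log2 −0.53, limma adjusted p = 0.47).

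The member regions ranked higher in WT were the Rsad2 promoter and a distal region of Isg15. Rsad2 encodes viperin, an enzyme that makes a chain-terminating nucleotide. Its promoter region (chr12:26456260-26456664), which holds the ISRE and AP-1 letters printed above, had 44.0 and 37.4 scaled fragments in WT and 23.3 and 27.9 in Mapk8-KO. By percentile it stood at 80.6 and 66.0 in WT, and at 32.7 and 40.5 with Mapk8 deleted, with no overlap. The log2 difference was −0.67 (SE 0.27, limma adjusted p = 0.354). Cmpk2, a nucleotide kinase gene next to Rsad2, had a promoter that held 27.0 and 24.5 in WT and 30.4 and 29.4 in Mapk8-KO. The Isg15 region (chr4:156192514-156193114) lay 8213 bp from the start site, past the 3′ end of Isg15 and within the gene Agrn. It held 48.0 and 47.5 in WT and 42.1 and 34.0 in Mapk8-KO (log2 −0.34, SE 0.25, limma adjusted p = 0.68). Its log2 difference ran from −0.49 to −0.18 with a library left out. For the 4 regions ranked higher in 1 genotype, the exact permutation test over libraries gave a two-sided p of 0.333, the smallest that 2 against 2 libraries allow. The test used the percentiles by which these regions were picked, so this outcome was fixed by the ranking rule and adds nothing to it.

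In addition, 2 member regions were called in WT 1 and WT 2 and neither Mapk8-KO library, as were 2.17% of all regions, and 0 were called in Mapk8-KO only, against 1.65%. The first was the Mx1 region 677 bp from the start site (chr16:97461275-97461559), the one promoter region called for this gene of a GTPase. It held 20 and 21 unscaled fragments in WT 1 and WT 2. The other had its summit at −2162 bp from the Ifit2 start site, near a start site of AC102249.1 (chr19:34548136-34548639), and held 16.0 and 14.0. Both summits were within 100 bp of AP-1 letters, as were the summits of 23.7% of all regions. The share among all regions called in WT only was not computed. The 201 bases around the second summit are shown with the AP-1 letters in capitals, since it is a region called in 1 genotype only.
Ifit2 upstream region, chr19:34548448-34548648, plus strand: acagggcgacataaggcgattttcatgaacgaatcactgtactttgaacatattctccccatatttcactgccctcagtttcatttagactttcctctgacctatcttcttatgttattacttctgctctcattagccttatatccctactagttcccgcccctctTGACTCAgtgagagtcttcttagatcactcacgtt

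The deposited lists give no value for a region that was not called, so no fold between the genotypes can be given for these 2 regions. The lowest summits listed in the Mapk8-KO libraries held 10.0 and 8.0 fragments.

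**Figure D4:**
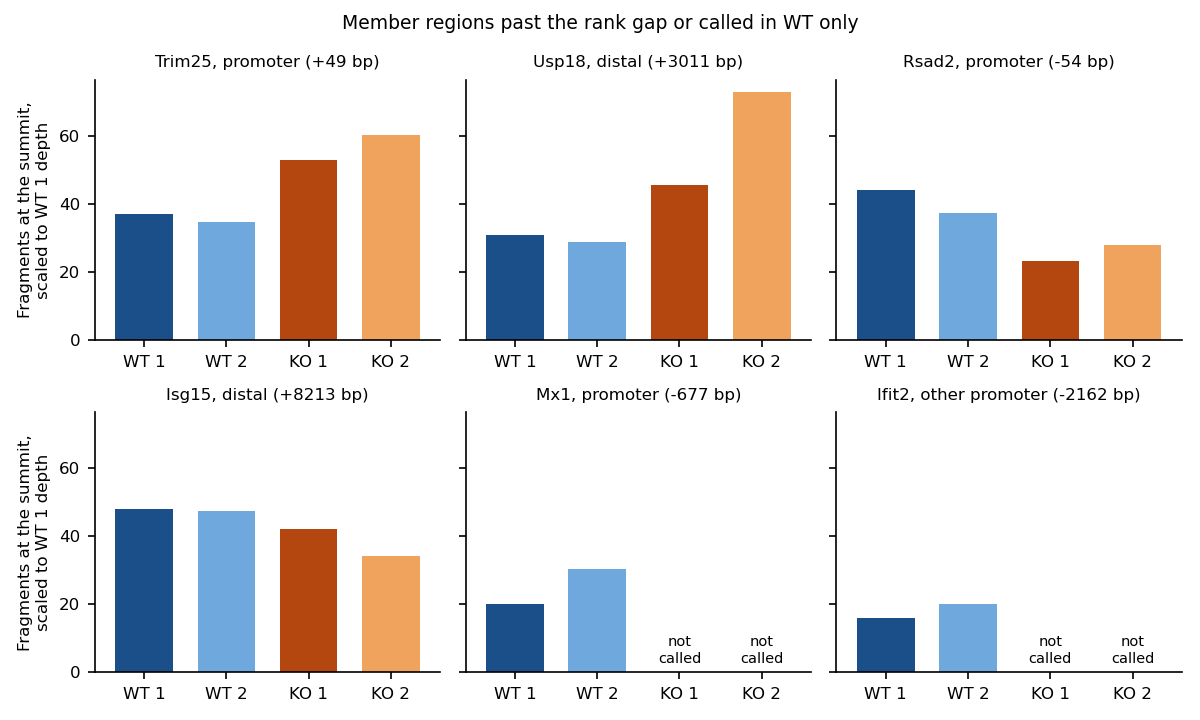
Fragments at the summit, scaled to the depth of WT 1, in each library (bars, from 0) for the 4 member regions past the rank gap and the 2 called in WT only; KO stands for Mapk8-KO and the distance is from the start site of the named gene. Trim25 and Usp18 are higher in both Mapk8-KO libraries, Rsad2 and Isg15 are lower, and Mx1 and Ifit2 have no call there.

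The 5 distal regions with the highest mean percentile were those of Usp18 (16268 bp), Ifih1 (8535 bp before its start site), Cmpk2 (9337 bp), Isg15 (8213 bp) and Trim25 (23201 bp). The Ifih1 region (chr2:62654565-62654991) held 46.0 and 30.2 scaled fragments in WT and 56.4 and 54.2 in Mapk8-KO. WT 2, at the 47.4th percentile, stood apart from the other libraries at 92.0, 92.0 and 92.9, and the log2 difference was 0.57 (limma adjusted p = 0.41). The Cmpk2 region held 56.0 and 53.3 in WT and 46.6 and 51.1 in Mapk8-KO, and the Trim25 region 60.0 and 49.0 in WT and 49.3 and 44.9 in Mapk8-KO. Neither differed beyond the error of the fit.

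Among other genes of the pathway, promoters were called at the receptors and kinases and seldom at the interferons. A promoter was called in all 4 libraries for 6 of 6 receptor subunits, for 3 of 3 kinases (Jak1, Jak2 and Tyk2), for 8 of 10 sensing genes and for 4 of 4 inhibitors. None of the interferon genes Ifnb1, Ifnk and Ifne was called in all libraries, and Ifnk was called in 1. Ifnb1 had 0 promoter regions and 3 distal ones. The Ifnar1 promoter held 110.0 and 100.8 scaled fragments in WT and 117.3 and 122.3 in Mapk8-KO. Its mean of 112.6 was above that of every member. Tlr7, the receptor of imiquimod, held 45.0 and 37.4 in WT and 29.6 in Mapk8-KO 1, and no region was called there in Mapk8-KO 2. No region of these 26 genes passed the limma test in either direction, and 1 to 3 regions per list, except 0 for the interferons, had an unadjusted p under 0.05.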

How the data were processed

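ATAC-seq libraries from keratinocytes of WT and Mapk8-KO mice under imiquimod were used, 2 per genotype, grouped by their titles. The study's methods name Bowtie2 for mapping to mm10, SAMtools for filtering and MACS2 for the peak calls, made by the authors per library at q 0.05 without a control, while the submitters' processing notes name Trimmomatic 0.36, STAR 2.5.3, Picard, SAMtools and MACS2. The deposited lists hold, per peak, a fold (ratio) over background, −log10 p and −log10 q, a score and a summit offset in bp, another deposited value. Their lowest −log10 q was 2.01, stricter than the stated threshold. No shift for the Tn5 cut is stated.

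Fragments at summits were recovered from the deposited fold and −log10 p of a Poisson tail with a pseudocount of 1, and 99.996% or more came out whole within 0.05. Recovery and the fit were tested on simulated data. Log2 fragments of the 40159 regions called in all libraries, centred by median ratios, were fitted with limma 3.58.1 (R 4.3.3, variance trend, Benjamini-Hochberg adjustment over all regions) on WT and Mapk8-KO libraries, without the replicate number. Fragments are counts at 1 position, so their number limits precision. All 244222 peaks lay within GRCm38 chromosomes. Other work used Python 3.11.15, pandas 2.3.3, scipy 1.17.1 and pysam 0.24.0.

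The members, gene lists and tests were chosen with earlier results of these data known. All 38 members were accounted for. Values per library were given for the strongest promoter region of described members, for regions that differed by call or rank, and for the 5 distal regions of highest mean percentile. A further gene of the pathway lists is not reported here.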

Additional observations from a re-analysis of the deposited data

How the results depend on the processing

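The absence of called member regions held under 7 of 9 alternatives of the limma fit. The exceptions were scaling by library medians, chosen after seeing the data, and leaving out Mapk8-KO 1, each with 1 member region called, the Usp18 intron. Over all regions the count of 83 fell to 0 without the variance trend, 0 on log2 fold, 29 with quantile scaling and 46 with the replicate block, rose to 244 with library medians, and ran from 1 (without WT 2) to 1960 (without Mapk8-KO 1) when 1 library was left out, so it rests on single libraries. The tests without a trend and on log2 fold had 3883 and 2703 regions at an unadjusted p under 0.05. The labels number the libraries of both genotypes 1 and 2. Deviations of same-numbered libraries had a correlation of 0.0392 across regions, so the number was not treated as a pairing. With the block, member regions at an unadjusted p under 0.05 were 4 in place of 5, and over all regions 4461 in place of 4188. The block changed no call of a member region and no count of member regions by call or rank. The cause of these changes was not tested.

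Counts of member regions were small and moved with the settings. Of WT-only regions there were 1 with 2 kb flanks, 4 where a peak had to cover 50% of the region, and 3 to 9 with a library left out. Of Mapk8-KO-only regions there were 1 with lists of equal length, 3 with the 50% cover, and 0 to 8 with a library left out. Regions ranked higher in WT numbered 1 with 2 kb flanks, 5 at a gap of 5 points, 1 at 20 points, 1 with percentiles of the whole list (chosen after seeing the data), and 3 to 6 with a library left out. Those ranked higher in Mapk8-KO numbered 1 with lists of equal length, 0 at 20 points, 3 with percentiles of the whole list, and 5 to 7 with a library left out. The promoter percentile difference of 0.856 points was −0.219 with lists of equal length and 4.12 on −log10 p, and −0.107 to 3.28 with a library left out, turning sign without WT 2 (−0.0419) and without Mapk8-KO 2 (−0.107). The distal difference of 1.05 points ran from −2.67 to 2.41, turning sign without WT 2 (−0.869) and without Mapk8-KO 2 (−2.67). The difference in member regions per library, −1.5 (Mapk8-KO minus WT), was 4.0 with lists of equal length and −11.5 to 8.5 with a library left out, turning sign without WT 1 (6.5) and without Mapk8-KO 2 (8.5). The log2 differences of the Usp18, Trim25, Rsad2 and Isg15 regions kept their sign under every alternative, with adjusted p of 0.115 to 0.91 for Trim25, 0.343 to 0.82 for Rsad2 and 0.374 to 0.997 for Isg15. Depth limits all calls, since a region missed in a shallow library is not shown to be closed.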
